A study of Mus musculus with 6 samples.

Results

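The genes described here encode the proteins of the cytosolic ribosome, and their transcripts were followed in cultured mouse hepatocytes exposed to tumour necrosis factor alpha (TNFα). Members were all genes whose symbol in the platform annotation is Rpl or Rps followed by a number, together with Rplp0, Rplp1, Rplp2 and Rpsa. The 6 symbols of ribosomal protein S6 kinases (Rps6k) fit the pattern and were left out. The rule gave 65 genes with 96 probes of the 19057 genes on the array that have a probe with a single symbol. A probe was kept when its intensity was above the 50th percentile of the array on at least 2 of the 6 arrays, and 60 members passed, of 13438 genes tested. The members were 33 proteins of the large (60S) subunit, of which 32 were tested, 23 of the small (40S) subunit, of which 22 were tested, 8 paralogs or copies, of which 5 were tested, and the binding protein Rps19bp1. Rpl14, Rps20, Rpl3l, Rpl39l and Rps23rg1 had no passing probe and were not tested. Fau and Rack1 (formerly Gnb2l1), which encode ribosomal proteins under other names, had no probe paired with their symbol and were not analysed here.

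Primary hepatocytes, the parenchymal cells of the liver, were prepared from the livers of male C57Bl/6J mice and grown on collagen-coated plates in Williams' E medium with 5% foetal calf serum, 50 nM dexamethasone and 1 nM insulin. The 3 groups of 2 arrays each were cells given recombinant murine TNFα at 2 ng/mL for 2 hours, cells given the same dose for 2 days, and untreated cells, whose time in culture the labels do not give. No label says whether the 2 arrays of a group are separate animals or plates, so the p-values reflect differences among these 6 arrays, and their source may be technical. Total RNA was labelled as biotinylated cRNA and hybridised to Illumina bead arrays, and the values are deposited intensities on a linear scale. The 2 untreated arrays enter both comparisons with treated cells.

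Each ribosome carries a single copy of nearly every ribosomal protein, and cells make these proteins in matched amounts from abundant, short transcripts. In mammals these transcripts begin with a C followed by a run of pyrimidines, the terminal oligopyrimidine (TOP) tract, through which mTOR signalling and the RNA-binding protein LARP1 set how much of the mRNA is translated. That control acts on translation, which arrays of total RNA do not measure. In the liver, ribosomal protein synthesis is part of the growth response of hepatocytes, and TNFα is an inflammatory cytokine that acts on hepatocytes through NF-κB and other pathways.

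The start region is printed for members on the brightest probes and for Rpl34, the member called at 2 days, because this gene class is known for a pyrimidine tract there. Promoter windows from RefSeq (GRCm38.p6) were available for 46 of the 56 subunit members. A C followed by at least 5 bases that are C or T lay on the sense strand between 25 bases before and 50 bases after the annotated start in 39 of the 46 (84.8%), and in 13706 of 26971 other genes (50.8%). The other genes, here and for the motifs below, are all those with a window, whether or not they were tested on the arrays. A gene counted when any of its windows matched, and the comparison was not matched for expression. Of the 19 genes looked up (17 on the brightest probes, Rpl34 and Rps3), 16 had a window and 14 a tract. In each window only the first tract was taken, cut at the ends of the searched bases, so a longer run may lie elsewhere. The 9 genes whose longest such tract had at least 8 bases and lay within a full stretch of 30 bases are given below. They are printed from 5′ to 3′, with the tract in capitals.
Rpl34, chr3:130730333-130730362, minus strand: ctcacccgCCCCTTCCTTTTCCTCTTCCgg
Rpl27a, chr7:109519183-109519212, plus strand: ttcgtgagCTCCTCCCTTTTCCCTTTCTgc
Rpl35, chr2:39005117-39005146, minus strand: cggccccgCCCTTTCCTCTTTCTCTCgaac
Rpl10a, chr17:28328574-28328603, plus strand: gcgctctgCCTTCTTTCCggtttccgcggc
Rpl37, chr15:5116633-5116662, plus strand: cgggggtgCTTTCTCTTCCggtctctttgg
Rpl38, chr11:114668572-114668601, plus strand: gcctcgttCTTTCCCCgttctcttcggttc
Rps12, chr10:23787180-23787209, minus strand: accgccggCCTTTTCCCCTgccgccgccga
Rps24, chr14:24490668-24490697, plus strand: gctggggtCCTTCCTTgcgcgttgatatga
Rps9, chr7:3704028-3704057, plus strand: cgccttgtCTCTCTTTgtctcgggcctgag
The tracts printed for Rpl34 and Rpl27a, at 20 bases each, were longer than those of Rpl38, Rps24 and Rps9, at 8 bases each. Counted from the annotated start, the printed tracts began at positions between -17 (Rpl34) and 28 (Rpl37). The annotated start is not a measured start in these cells, so a tract near it is a description of the sequence. Over the whole window, from 250 bases before to 50 after the start, the ETS-type motif CCGGAAG was found on either strand in 21 of the 46 members (45.7%) and in 9.86% of other genes. The GC box GGGCGG was found in 30 of the 46 (65.2%) and in 38.1% of other genes. The motifs were searched as spelled and on their reverse complement.

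Ribosomal protein transcripts were among the brightest signals on every array. The mean intensity of the probe that stood for each tested member ran between 135.8 and 46291.2, with 38 of 60 members above 10000, 11 between 1000 and 10000, 4 between 286 and 1000, and 7 under 286, which is 2 times the median of an array. Among the 100 brightest probes of an array, 17 and 16 were probes of members in cells given TNFα for 2 hours, 18 and 17 after 2 days, and 16 and 18 in untreated cells. The summed intensity of the 60 members was 4.238% and 4.203% of all signal on the arrays of 2 hours of TNFα, 4.221% and 4.263% on those of 2 days, and 4.129% on both untreated arrays. The 4 treated arrays thus stood above both untreated arrays in this share, and no test was run on it.

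**Figure D1:**
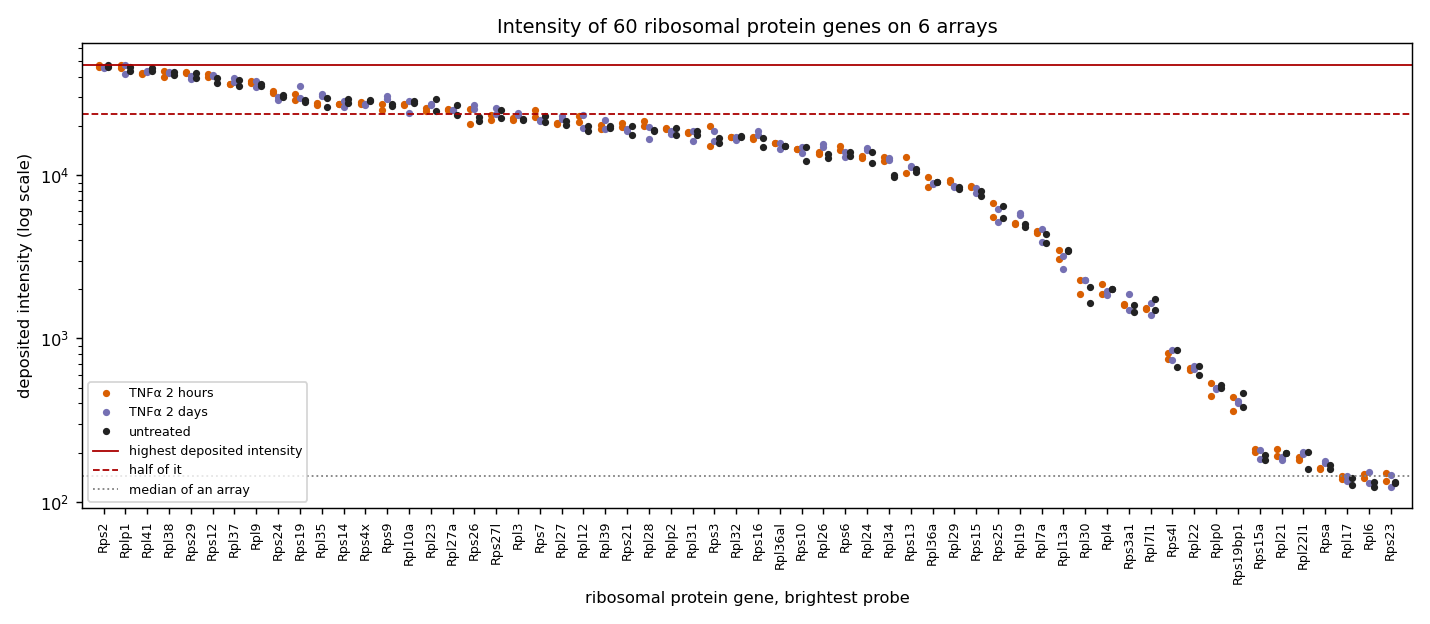
Deposited intensity (log scale) of the 60 tested ribosomal protein genes, ordered by mean, on the 2 arrays each of 2 hours of TNFα, 2 days of TNFα and untreated cells. Points of a gene lie close together in all groups, 17 genes have a mean above the dashed line at 23808 (50% of the highest deposited intensity), and 7 lie near the array median.

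The brightest members had little room to rise. All 6 columns of the deposited table share nearly the same set of sorted values, which differ by at most 0.333% between arrays, and the highest value of each is 47615, so the intensity of a bright probe stands for its rank on the array. Rps2, a small-subunit protein at the entry of the mRNA channel, had 47015 and 46123 after 2 hours, 46123 and 45350 after 2 days, and 46123 and 47015 in untreated cells. These are ranks 2 and 3, ranks 3 and 4, and ranks 3 and 2 of the arrays, and the mean of Rps2 lay 0.041 log2 units under the ceiling.

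Rplp1, an acidic protein of the stalk that recruits elongation factors, had 47615 and 45350 after 2 hours, 41580 and 47615 after 2 days, and 43704 and 46123 in untreated cells. It was the brightest named probe on 1 array of each treated group. Rpl41, the smallest protein of the large subunit, had 41812 and 42487 after 2 hours, 43704 and 42962 after 2 days, and 43346 and 45350 in untreated cells. The values of all groups overlapped for Rplp1, and for Rpl41 both arrays of 2 hours were under both untreated arrays by a log2 difference of -0.073 (SE 0.10, adjusted p = 0.87, limma).

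The means of 17 members lay above 23808, which leaves less than 1 log2 unit to the ceiling. They were Rps2, Rplp1, Rpl41, Rpl38, Rps29, Rps12, Rpl37, Rpl9, Rps24, Rps19, Rpl35, Rps14, Rps4x, Rps9, Rpl10a, Rpl23 and Rpl27a, with 0.92 log2 units left for Rpl27a. None of these 17 was called higher or lower in any of the 3 comparisons. The other 44 genes in the same range had 0 calls at 2 hours against untreated, 1 higher and 5 lower at 2 days against untreated (13.6%), and 2 higher and 6 lower at 2 days against 2 hours (18.2%). Among those 44, Apoa1, the main protein of high-density lipoprotein, had 25181 and 21974 after 2 days against 41417 and 41715 in untreated cells, so a fall of -0.82 on the log2 scale was measurable on a probe of this brightness (limma, adjusted p = 1.5e-06).

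At the dim end, the probes of Rps23, Rpl6, Rpl17 and Rpsa had means of 136, 138, 138 and 166, near the array median of 143. Rps23, at the decoding site of the small subunit, had 133 and 150 after 2 hours, 146 and 123 after 2 days, and 132 and 130 in untreated cells. Rpsa, the 40S protein also known as the laminin receptor, had 159 and 160 after 2 hours, 177 and 172 after 2 days, and 169 and 160 in untreated cells. Rps15a, Rpl21 and the paralog Rpl22l1 were the other members under 286. Alb, a defining hepatocyte transcript, was likewise dim on its probe, at 157 and 151 after 2 hours, 145 and 146 after 2 days, and 174 and 145 in untreated cells. Ttr, another defining hepatocyte transcript, was bright, at 34024 and 33826 after 2 hours, 27107 and 26928 after 2 days, and 32501 and 32934 in untreated cells. Intensities of different probes are not on a common scale, so levels were not compared between genes.

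At 2 hours of TNFα against untreated cells, no member was called. Calls used limma on log2 intensity with Benjamini-Hochberg adjustment over all 13438 genes and a threshold of 0.05. Of the 60 members, 0 were higher and 0 lower, where 1.76% of all genes tested were called higher and 1.06% lower, and at an unadjusted p under 0.05 there was 1 higher member (Rpl34) and 0 lower, where 5.17% of all genes were higher and 6.61% lower. The log2 changes lay between -0.095 and 0.34 with a median of 0.046, where the median of all genes was -0.012, and 41 of 60 (68.3%) were positive, where 46.4% of all genes were. Standard errors ran between 0.098 and 0.12, so most of these differences are smaller than their error. The 2 groups did not overlap, with both treated arrays higher, in 16 members (26.7%, with 18.0% of all genes), and with both lower in 4 (6.67%, with 22.4% of all genes).

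At 2 days against untreated cells, 1 member was called higher, Rpl34, and 0 lower, where 6.74% of all genes were called higher and 5.92% lower. At an unadjusted p under 0.05, 5 members were higher (8.33%, with 12.3% of all genes) and 1 lower (1.67%, with 10.4% of all genes). The log2 changes lay between -0.24 and 0.34 with a median of 0.041, where the median of all genes was 0.0056, and 37 of 60 (61.7%) were positive, where 51.7% of all genes were. Both treated arrays were above both untreated arrays in 16 members (26.7%, with 26.1% of all genes), and below them in 6 (10.0%, with 23.5% of all genes).

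At 2 days against 2 hours, 0 members were called higher and 0 lower by limma, where 8.63% of all genes were called higher and 6.67% lower, and none had an unadjusted p under 0.05 in either direction, where 14.9% of all genes were higher and 10.8% lower at that level. The changes lay between -0.20 and 0.19 with a median of -0.013, where the median of all genes was 0.014. Both arrays of 2 days were above both of 2 hours in 14 members (23.3%, with 29.4% of all genes), and below them in 11 (18.3%, with 23.4% of all genes).

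The members varied little. The log2 change was under 0.2 in size in 59 of 60 members at 2 hours against untreated (98.3%, with 85.8% of all genes), in 54 at 2 days against untreated (90.0%, with 74.5%), and in all 60 at 2 days against 2 hours (with 71.5% of all genes). The 95% interval of the change lay within 1.5-fold in either direction for each of the 60 members in all 3 comparisons, where 96.9% of all genes met this at 2 hours and 90.4% at 2 days, each against untreated, and 88.6% met it between the exposures. For the 17 brightest members the ceiling limits rises but not falls, and some had more than 1.5-fold of room to rise (0.92 log2 units for Rpl27a). For the 7 dimmest the intensity is near background. How far either limit narrowed these intervals was not tested. Among the 36 members between these ends, 0 were called at 2 hours and 1 at 2 days against untreated (2.78%), and 0 at 2 days against 2 hours. The other 5583 genes in that range were called in 5.79%, 24.6% and 28.6% of cases in the same 3 comparisons. The median size of the log2 change in these 36 members was 0.073, 0.072 and 0.081, where it was 0.10, 0.17 and 0.19 in the other genes. Brightness within the range differed, with 21 of the 36 members and 109 of the other genes above 10000. Above 10000 the median sizes were 0.0705, 0.0851 and 0.0957 in members and 0.0767, 0.183 and 0.184 in other genes. At like brightness the spread of members was thus narrower in the 2 comparisons with 2 days, and close to that of other genes at 2 hours.

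**Figure D2:**
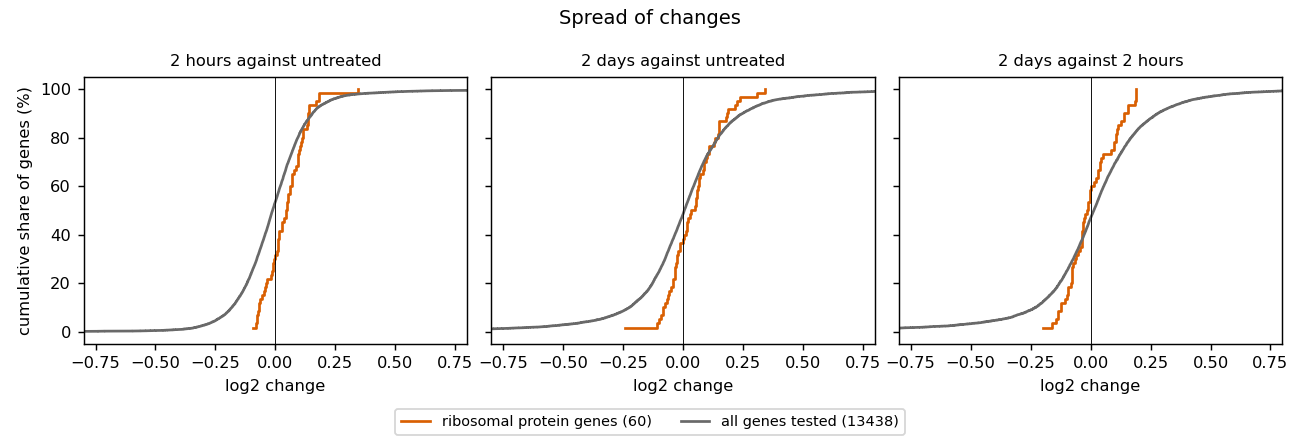
Cumulative share (%) of the 60 ribosomal protein genes and of all 13438 genes tested by log2 change, with a panel for 2 hours and one for 2 days, each set against untreated, and one for 2 days set against 2 hours. The steps of the ribosomal protein genes end within -0.24 and 0.34, and the curves of all genes run beyond the axes on both sides.

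Among the large-subunit proteins, Rpl34 was the one member called higher at 2 days on its representative probe, the one that stood for the gene. Its single probe had 12207 and 12842 after 2 hours, 12651 and 12378 after 2 days, and 9757 and 9968 in untreated cells. All 4 treated arrays lay above both untreated arrays, and the arrays of 2 hours and 2 days overlapped. At 2 days the log2 change was 0.34 (SE 0.099, 95% interval 0.14 to 0.55), a 1.27-fold difference, with an adjusted p of 0.020 in limma. At 2 hours the change was 0.34 (SE 0.099) with an adjusted p of 0.063, which missed the threshold but passed it with the mean of the probes of each gene (0.047) and with a trended prior variance (0.032). The difference between 2 days and 2 hours was -0.00073. The call at 2 days was lost after a normexp background correction (adjusted p = 0.20) and when any 1 of the 4 arrays it compares was left out (adjusted p between 0.063 and 0.11).

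Rpl30, a large-subunit protein that also binds the selenocysteine element of mRNAs, had 1884 and 2288 after 2 hours, 2289 and 2288 after 2 days, and 2079 and 1644 in untreated cells. Both arrays of 2 days were above both untreated arrays, by a log2 change of 0.31 that missed the threshold (adjusted p = 0.091). A second Rpl30 probe had a change of 0.12 at 2 days. Without the first untreated array, Rpl30 was the called member at 2 days, at 0.48 (adjusted p = 0.019).

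The other changes with an unadjusted p under 0.05 at 2 days were in Rpl19, Rpl26, Rps26 and Rpl13a. Rpl19, a protein that bridges the subunits, had 5676 and 5855 after 2 days against 5052 and 4810 in untreated cells (log2 change 0.23, adjusted p = 0.16). Rpl26, near the exit of the peptide tunnel, had 15484 and 14953 after 2 days against 12745 and 13431 in untreated cells (0.22, adjusted p = 0.18). Both genes had non-overlapping groups at 2 days, and none of the changes passed the adjustment. Rpl13a, known from human monocytic cells as a translational silencer of inflammatory mRNAs once released from the ribosome, had the lowest change: 2668 and 3188 after 2 days against 3422 and 3478 in untreated cells (-0.24, adjusted p = 0.17). After 2 hours Rpl13a had 3457 and 3071, which overlapped with the untreated arrays.

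The median change of the 32 large-subunit members was 0.015 at 2 hours, with 21 of 32 positive, and 0.026 at 2 days, both against untreated. The stalk proteins Rplp0, Rplp1 and Rplp2 had changes of -0.064, 0.050 and 0.069 at 2 hours and of -0.043, -0.013 and -0.024 at 2 days. Rpl3, next to the peptidyl transferase centre, had 22469 and 21858 after 2 hours, 24173 and 23274 after 2 days, and 21858 and 22172 in untreated cells. The changes of the stalk proteins had mixed signs at 2 hours and were all negative at 2 days, each smaller than its standard error, and the change of Rpl3 at 2 days was 0.11 (adjusted p = 0.60).

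Among the small-subunit proteins no representative probe was called. Their median change was 0.089 at 2 hours, with 17 of 22 positive, and 0.055 at 2 days. Rps26, at the exit of the mRNA channel, had 20706 and 25320 after 2 hours, 26846 and 25320 after 2 days, and 21396 and 22809 in untreated cells. Its 2 arrays of 2 days were above both untreated arrays (log2 change 0.24, adjusted p = 0.18), and those of 2 hours lay on either side of them. Rps6, the substrate of the S6 kinases downstream of mTOR, had 15130 and 14336 after 2 hours, 13782 and 12899 after 2 days, and 13782 and 13120 in untreated cells. Its changes were 0.13 (adjusted p = 0.71) at 2 hours and -0.012 (adjusted p = 0.97) at 2 days. Rps19, whose human gene is mutated in Diamond-Blackfan anaemia, had 31278 and 28795 after 2 hours, 29775 and 35202 after 2 days, and 28211 and 28974 in untreated cells (0.18 at 2 days, adjusted p = 0.34).

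**Figure D3:**
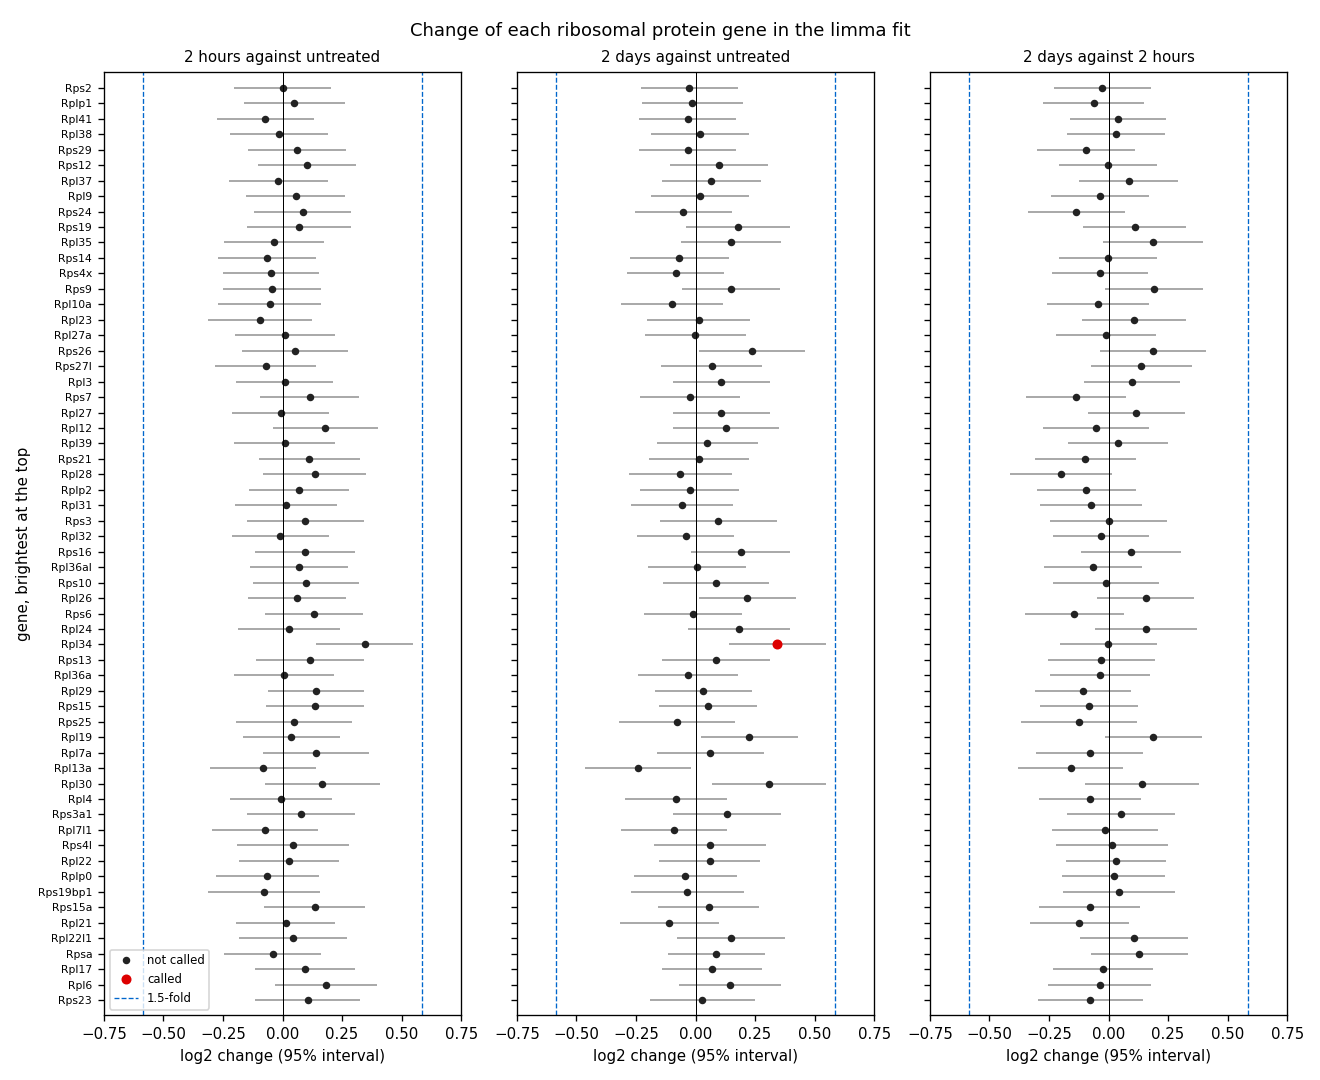
Log2 change with its 95% interval (limma) for each of the 60 ribosomal protein genes, brightest at the top, at 2 hours and at 2 days, each set against untreated, and at 2 days set against 2 hours. Dashed lines mark 1.5-fold, which no interval crosses, and the red point is Rpl34, the 1 called gene, at 2 days against untreated.

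The 5 paralogs and copies with a passing probe were not called. Rps27l, a paralog of Rps27 known as a p53 target, had 21673 and 23274 after 2 hours, 25646 and 23808 after 2 days, and 24936 and 22283 in untreated cells (log2 change -0.070 at 2 hours and 0.068 at 2 days). Rpl36al had 15786 on both arrays of 2 hours, 14429 and 15786 after 2 days, and 15014 and 15053 in untreated cells (0.070 and 0.0057). Their groups overlapped at 2 days, and Rpl36al was higher on both arrays of 2 hours than on both untreated arrays. Rpl7l1, a paralog of Rpl7, had changes of -0.075 at 2 hours and -0.090 at 2 days, Rps4l, a transcribed pseudogene in the RefSeq annotation, of 0.045 and 0.060, and the dim Rpl22l1, a paralog of Rpl22, of 0.043 and 0.15. Rps19bp1, which binds Rps19 and is no ribosomal subunit, had changes of -0.077 and -0.034. RefSeq lists 324 pseudogene symbols of the same pattern for the mouse, and whether a probe also captures transcripts of a near-identical copy was not tested.

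Probes of the same gene did not always move alike. Of the tested members, 18 had more than 1 kept probe, 42 in all. With each of the 21425 named and kept probes fitted as its own feature in limma, at 2 days against untreated 3 of the 84 member probes were called higher and 0 lower, where 5.47% of all probes were called higher and 5.00% lower. The 3 probes were the single one of Rpl34 and the dimmer ones of Rps3 and Rpl38. At 2 hours, 0 were called higher and 0 lower (1.47% and 0.779% of all probes), with 1 higher and 1 lower at an unadjusted p under 0.05 (4.96% and 5.86% of all probes). At 2 days against 2 hours, 1 was higher, the dimmer probe of Rps3, and 1 lower, a dimmer probe of Rpl23, where 6.83% of all probes were called higher and 5.94% lower.

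Rps3, at the mRNA entry and known from human cells also to bind the NF-κB subunit p65, had on its dimmer probe 6843 and 6206 after 2 hours, 8558 and 8770 after 2 days, and 6599 and 5772 in untreated cells. Both arrays of 2 days stood above the other 4 arrays, by 0.49 on the log2 scale against untreated (SE 0.10, adjusted p = 0.0018) and by 0.41 against 2 hours (adjusted p = 0.0077). Its brighter probe had 15053 and 20115 after 2 hours, 16188 and 18706 after 2 days, and 16832 and 15743 in untreated cells. On that probe all groups overlapped, with a log2 change of 0.096 at 2 days (adjusted p = 0.75), and its mean of 17106 is under the 23808 mark.

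Rpl38, which in mouse embryos is needed for the translation of some Hox mRNAs, had on its dimmer probe 1725 and 1748 after 2 hours, 2276 and 1924 after 2 days, and 1575 and 1612 in untreated cells. The change at 2 days was 0.39 (SE 0.10, adjusted p = 0.013) against untreated and 0.27 against 2 hours (adjusted p = 0.096). Its brighter probe, with a mean of 42054 close to the ceiling, had 43346 and 39924 after 2 hours, 42351 and 42732 after 2 days, and 41236 and 42732 in untreated cells, a change of 0.019 at 2 days. The groups separated on the dimmer probe and overlapped on the brighter one.

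Rpl23, a large-subunit protein that also binds the p53 regulator Mdm2, had on its dimmer probe 2229 and 2130 after 2 hours, 1821 and 1620 after 2 days, and 1891 and 1948 in untreated cells. On this probe 2 days was lower than 2 hours by a log2 change of -0.34 (SE 0.10, adjusted p = 0.023), and neither comparison against untreated was called. The other Rpl23 probes had changes of 0.11 and 0.044 between 2 days and 2 hours. The dimmer probes of Rps24 had changes of 0.27 and 0.15 at 2 days (adjusted p = 0.11 and 0.45), where its brightest had -0.051. The kept Rps24 probes are each annotated to a different transcript record, and which transcripts they detect was not tested. The differences between probes of a gene were not tested.

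**Figure D4:**
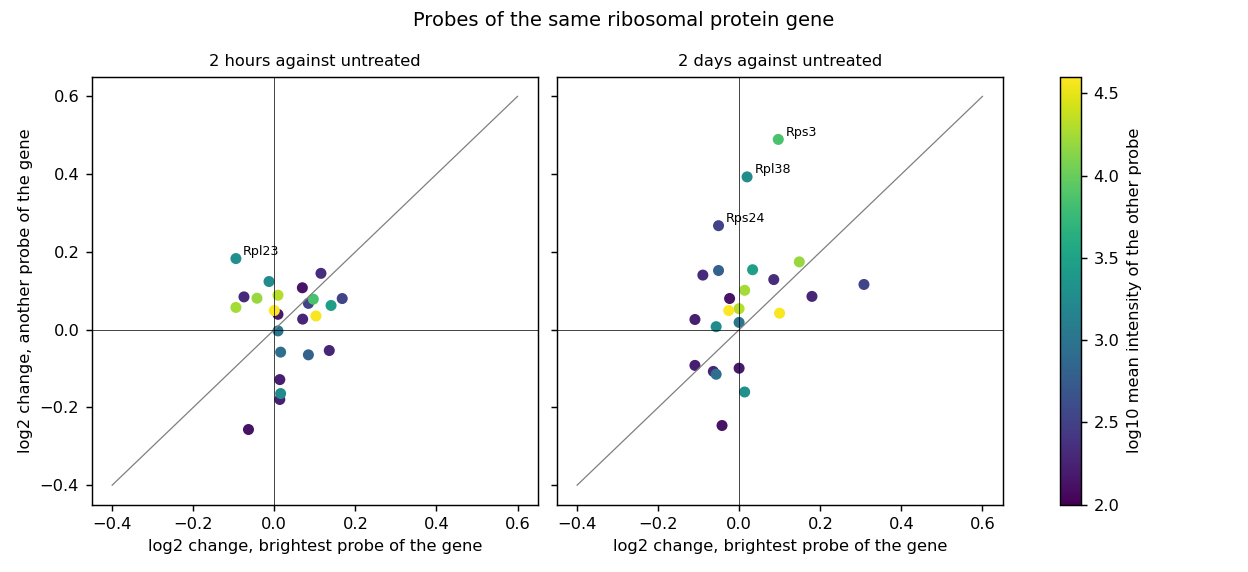
Log2 change of the brightest probe of a gene (x axis) against that of each other kept probe of the same gene (y axis), for 2 hours and 2 days of TNFα against untreated, with the log10 mean intensity of the other probe as colour and the line of equal change in grey. At 2 days the dimmer probes of Rps3 and Rpl38 lie at 0.49 and 0.39 on the y axis, above the line.

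**Figure D5:**
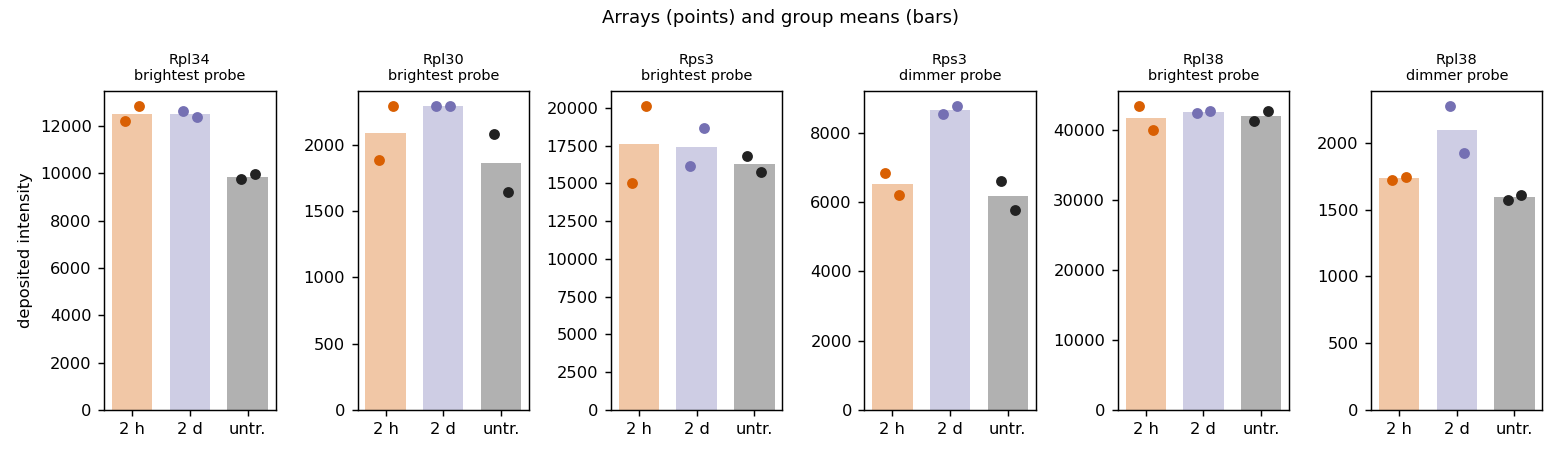
Deposited intensity on each array (points) and group mean (bars) for Rpl34, Rpl30, and the brighter and dimmer probes of Rps3 and Rpl38, in cells given TNFα for 2 hours and 2 days and in untreated cells. Rpl34 is higher on all 4 treated arrays, and the dimmer probe of Rps3 and that of Rpl38 are higher on the arrays of 2 days.

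Other genes of ribosome production and translation were followed as lists. Of all genes tested, 1.76% were called higher and 1.06% lower at 2 hours, and 6.74% and 5.92% at 2 days, each against untreated. At an unadjusted p under 0.05, 5.17% of all genes were higher and 6.61% lower at 2 hours. Of 73 tested mitochondrial ribosomal proteins (Mrpl and Mrps), 0 were higher and 1 lower at 2 hours and 2 higher and 1 lower at 2 days, with medians of -0.038 and -0.0024; at an unadjusted p under 0.05, 2 were higher and 6 lower at 2 hours. Mrpl50 had 2075 and 2032 after 2 days against 3088 and 2933 in untreated cells (log2 change -0.55, adjusted p = 0.00032), and Mrpl33 and Mrpl11 were called higher at 0.38 and 0.37. Of 56 initiation and elongation factors, 0 were called at 2 hours (4 higher and 1 lower at an unadjusted p under 0.05), and 4 were higher and 4 lower at 2 days, with a median of -0.00032. Eif2ak2, which encodes the interferon-induced kinase PKR that phosphorylates eIF2α, fits the symbol pattern of this list although it is no initiation factor, and had 1270 and 1247 after 2 days against 655 and 594 in untreated cells (1.01, adjusted p = 3.7e-08). Eif4ebp3, Eif1a and Eif6 fell at 2 days by 0.78, 0.52 and 0.47 on the log2 scale. Of these, Eif4ebp3 also fits only the symbol pattern and is no initiation factor. It was dim, at 168 and 155 after 2 days against 283 and 272 in untreated cells, where the array median was 143.

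Among 46 ribosome biogenesis factors, 1 was higher and 0 lower at 2 hours, and 1 higher (Heatr1, 0.35) and 3 lower at 2 days. The shares of all genes called were 1.76% higher and 1.06% lower at 2 hours, and 6.74% and 5.92% at 2 days. Rcl1, which cleaves the precursor of 18S rRNA in yeast, had 12634 and 13059 after 2 hours, 4779 and 5416 after 2 days, and 4889 and 4761 in untreated cells. Its rise at 2 hours was 1.41 on the log2 scale (adjusted p = 2.6e-10), and 2 days was lower than 2 hours by -1.34. The 3 lower at 2 days were Mrto4, Eif6, which keeps the subunits apart, and Rrp12, at -0.52, -0.47 and -0.33. At 2 days against 2 hours 1 was higher and 6 lower, where 8.63% of all genes were called higher and 6.67% lower. Of 17 RNA polymerase I genes, none passed the adjustment at 2 hours, where 0 were higher and 2 lower at an unadjusted p under 0.05, and 1 was higher (Ubtf, the factor that opens rRNA genes, 0.34) and 1 lower (Twistnb, -0.36) at 2 days.

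Of 22 regulators of translational control, 1 was lower at 2 hours (Mknk2, -0.38) and 1 higher and 5 lower at 2 days, with medians of -0.054 and -0.11. Of all genes, 1.06% were called lower at 2 hours, and 6.74% were called higher and 5.92% lower at 2 days. At 2 hours, 0 were higher and 3 lower at an unadjusted p under 0.05. Deptor, an inhibitor of mTOR, had 479 and 555 after 2 days against 872 and 831 in untreated cells (-0.72, adjusted p = 2.6e-05). Ddit4, a stress-induced inhibitor of mTORC1, had 1106 and 880 after 2 days against 1634 and 1596 in untreated cells (-0.71, adjusted p = 3.4e-05). Rictor, a part of mTORC2, had 816 and 829 after 2 days against 1068 and 1094 in untreated cells (-0.39, adjusted p = 0.0066). For all 3 the groups did not overlap.

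Cell type markers were called at both times, where 1.76% of all genes were called higher and 1.06% lower at 2 hours, and 6.74% and 5.92% at 2 days. At 2 hours Cd14, a macrophage marker, rose by 0.60 on the log2 scale (limma, adjusted p = 0.0013). Reln, a stellate marker, rose by 0.43 (adjusted p = 0.013), and Sox9, a bile duct marker, by 0.79 (adjusted p = 5.3e-06). No marker was called lower. At an unadjusted p under 0.05, 1 macrophage marker was higher and 2 lower, with 6 of 12 changes positive and a median of 0.021. The stellate list had 1 higher and 0 lower at that level, and the bile duct list 2 and 0. Of 13 tested hepatocyte markers, 5 fell at 2 days (Cps1, Cyp3a11, Asgr1, Apoa1 and Hnf4a) and 0 rose, and their summed intensity was 118310 and 114700 after 2 days against 175550 and 161860 in untreated cells. At 2 hours that sum was 168850 and 171790, with 0 called (2 higher and 1 lower at an unadjusted p under 0.05). Of 12 tested macrophage markers, 5 rose at 2 days (Cd14, C1qa, C1qb, C1qc and Cd163), with sums of 2836 and 2819 after 2 hours, 3467 and 3622 after 2 days, and 2416 and 2632 in untreated cells. Apart from Cd14 these 5 were dim, with means after 2 days between 193 (C1qa) and 299 (C1qb), where the array median was 143. Of 5 bile duct markers, 2 rose at 2 days (Sox9 and Krt23), with sums of 2323 and 2290 after 2 hours, 3708 and 4024 after 2 days, and 1629 and 1648 in untreated cells. Both sums were higher on all 4 treated arrays than on both untreated arrays, but single markers made up much of this. Sox9 had 1469 and 1465 after 2 hours, 2796 and 3027 after 2 days, and 852 and 842 in untreated cells. Cd14 had 1023 and 1025, 1406 and 1411, and 593 and 768 in the same order. The sums thus do not show a rise of the whole lists. The stellate, endothelial, and lymphocyte and neutrophil lists had 1, 1 and 0 markers higher and 1, 1 and 0 lower at 2 days, of 7, 11 and 3 tested. In the stellate list Acta2 was higher, by 0.67 (limma, adjusted p = 0.0011). Reln was the lower one, by -0.82 (limma, adjusted p = 1.2e-06), opposite to its rise at 2 hours. In these bulk samples fewer cells of a type and less RNA per cell cannot be told apart, and the part of these shifts in the values of the ribosomal protein genes was not tested.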

How the data were processed

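The data are 6 Illumina bead arrays of total RNA, 2 per group. The deposited intensity values are on a linear scale for 45281 probes, and no label names the software that made them. The columns share nearly 1 distribution (96.5 to 47615, medians 143.2), so they were already normalized between arrays and received only a log2 transform. Gene names came from the platform annotation, in which 34885 probes carry 1 symbol, 18 several, and 10378 are not listed; 34807 matched RefSeq (GRCm38.p6) by Entrez ID. Of 26272 kept probes, 21425 had 1 symbol, and the probe with the highest mean log2 intensity stood for its gene.

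Each gene was fitted with lmFit and eBayes in limma 3.58.1 (R 4.3.3), with a mean per group over all 6 arrays, 3 residual and 21.2 prior degrees of freedom, and Benjamini-Hochberg adjustment over 13438 genes. The steps were tested on simulated data. Depth does not apply to arrays, and their number limits the precision; arrays of a group correlated at 0.995 or more. Members and gene lists were chosen with earlier results of these data known. Members named are those called, those on probes above 23808, the 5 brightest and the 5 dimmest, the paralogs and Rps19bp1, and up to 4 called genes of each pathway list per comparison; members past an unadjusted p of 0.05, Rps3, Rps6, Rps24, Rpl3, Rplp0 and Rplp2 were added after their values were seen. Deviations of same-numbered arrays from their group means correlated at -0.15, -0.075 and 0.036, so the numbers were not taken as pairs. Alternatives in background correction, scaling, filter, probe choice, variance model, pairing, membership and left-out arrays were run.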

Additional observations from a re-analysis of the deposited data

Results flagged for a closer look

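The tests of 2 days against 2 hours of TNFα met a rule for single probes of 2 genes, since the difference between the exposures was itself significant there in the limma fit of every probe. The dimmer probe of Rps3 had a log2 difference of 0.411 (adjusted p = 0.0077), and a dimmer probe of Rpl23 had one of -0.343 (adjusted p = 0.023). Neither gene was called between the exposures on its brightest probe.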

How the results depend on the processing

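With the replicate block, Rpl34 was again the 1 member called higher at 2 days (adjusted p = 0.028), and 0 members were called elsewhere. At 2 hours, called members numbered 1 higher, against 0, with the mean of the probes of a gene, with a trended prior variance, and with a replicate block whose numbers were crossed in the untreated group (chosen after seeing the data). At 2 days, against 1 higher, there were 0 after normexp, 3 with every probe on its own, 2 with the brightest probe below 23808 (Rpl34 and Rpl38; 49 members) and 2 with the crossed replicate block. Leaving out each array gave 0 to 1. At 2 days against 2 hours, every probe on its own gave 1 higher and 1 lower, against 0 and 0. The cause was not tested. The median changes moved by less than 0.063 under every alternative run, which is the SD between replicate arrays of the median member log2 intensity. That SD is larger in size than the median changes themselves (0.046, 0.041 and -0.013). The bound therefore does not show that these medians kept their sign. Of 1143 values of named members under alternatives, 1135 kept their side of the threshold, 5 lost and 3 gained a call, and 0 calls reversed. Nearly all of these values were uncalled in the main fit, so the tally does not show that small changes kept their sign. Signal over background limits the 7 dim members, and the ceiling limits rises of the 17 brightest.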
